A study of Danio rerio with 16 samples.

Results

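Zebrafish embryos homozygous for a mutation in gfi1ab were compared with wild-type (WT) embryos by RNA sequencing of whole embryos at 15 hours post fertilization (hpf). The comparison takes 4 of the 16 libraries of the study, 2 of gfi1ab-/- and 2 of WT, and covers every gene that could be tested. The other 12 libraries hold the remaining gfi1 genotypes and were used to estimate the spread between replicates. With 2 libraries each, these are gfi1b-/-, gfi1aa-/-, the triple mutant gfi1 TM, and the double mutants (DM) that join gfi1b with gfi1ab (gfi1b/1ab DM), gfi1aa with gfi1ab (gfi1aa/1ab DM) or gfi1aa with gfi1b (gfi1aa/1b DM). The gfi1ab-/- embryos carried the smu12 allele, a small deletion made with Cas9 that was predicted to disrupt the zinc finger part of the protein, and were picked by genotyping from a cross of heterozygous carriers. Both gfi1aa and gfi1b were intact in these embryos and in the WT embryos. The WT embryos were wild-type siblings, but the cross that gave them and the number of embryos per library are not stated in the sources used here, so it is not known whether the groups share a clutch. Nothing says that the replicates came from separate clutches, and p-values then measure only the spread between these samples.

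The Gfi1 proteins are transcriptional repressors with a short SNAG domain at one end, which recruits the histone demethylase Lsd1 with CoREST and histone deacetylases, and C2H2 zinc fingers at the other end, which bind DNA. In mammals, Gfi1 acts in granulocytes, lymphocytes, blood stem cells and inner ear hair cells, and Gfi1b acts in red cells and platelets. Zebrafish have gfi1aa and gfi1ab on the Gfi1 side and gfi1b on the Gfi1b side. The embryo at this stage forms somites, and primitive red cells and the first endothelial cells arise from the lateral mesoderm. The comparison addresses what loss of gfi1ab alone does to the transcriptome while both related genes remain.

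The genotype of an embryo at gfi1ab was read by PCR across the targeted site. The 2 primers are those the study lists for genotyping gfi1ab, by which the mutant group was picked. Capitals were not used since no part of a primer was singled out.
gfi1ab forward: caccctccgtggaagaaacac
gfi1ab reverse: gcgccatttaacaggagacga

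Reads counted on genes totalled 17596409 and 22253984 in gfi1ab-/- and 19673394 and 20541651 in WT, within the range of 15657371 to 22524501 over all 16 libraries. The WT libraries stood apart from the rest of the series. On the first principal component, which held 21.0% of the variance, WT lay at 59.4 and 61.1 and the other 14 libraries between -29.9 and 29.9. Pairs of genotypes that include WT had 1882 to 4565 genes past the threshold (median 2110, 7 pairs), and pairs without WT 76 to 4894 (median 1462, 21 pairs). The largest count in each set came from a pair with gfi1aa/1ab DM, whose pairs had 1008 to 4894. By this count WT was not alone in standing apart. For a part of the genes below the level in the other 12 libraries is therefore given beside the difference, and a batch of the WT libraries and an effect of genotype cannot be told apart within this comparison. All 20 markers of embryonic cell types were present in all 4 libraries, among them the hatching gland gene ctslb, which 4 genes in the table share as a symbol, the most abundant with 2091 to 2899 counts and 2 with 3 counts or fewer. The muscle actin actc1b and the germ cell gene nanos3 were the only markers past the threshold.

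In gfi1ab-/-, 1087 genes (5.46% of 19903 tested) were higher and 962 (4.83%) lower than in WT, 2049 (10.3%) in all, by edgeR's quasi-likelihood test at an adjusted p under 0.05. The median log2 fold change was 1.07 among the genes that rose and -0.90 among those that fell, and 0.0026 over all genes tested. Small and large changes were both common. Of the called genes, 25.4% changed by less than 0.5 on the log2 scale and 28.5% by 2 or more. The size depended on the level, since the median size of a called change was 2.88 among the 4976 genes of lowest level and 0.35 among the 4976 of highest level. Levels are given as CPM, the read count scaled to the size of the library. The share called varied little with the level, from 9.14% at the highest level to 11.9% in the second of 4 bins. Requiring a log2 fold change of at least 1 left 563 higher and 442 lower genes. The counts depended on single libraries. Without WT replicate 2, 507 genes were higher and 501 lower, without WT replicate 1, 679 and 618, without gfi1ab-/- replicate 1, 630 and 467, and without gfi1ab-/- replicate 2, 786 and 612.

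**Figure D1:**
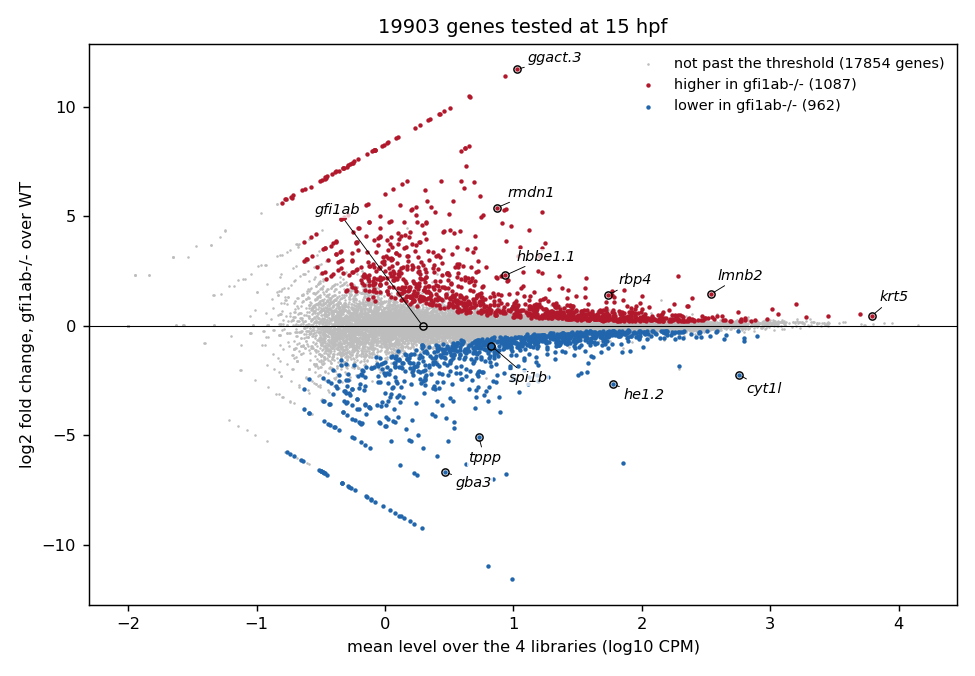
Mean level over the 4 libraries (log10 CPM, horizontal) against the log2 fold change of gfi1ab-/- over WT (vertical) for all genes tested, with 1087 higher genes in red, 962 lower genes in blue and genes not past the threshold in grey. The straight lines of points at the upper and lower left edges are genes with no count in one group, and krt5 near the right edge shows how small a change passed the threshold at high level.

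The level of gfi1ab itself did not report the mutation. Its transcript was counted at 2.28 and 1.66 CPM in gfi1ab-/- and 1.85 and 2.1 in WT (log2 fold change -0.02, SE 0.29, adjusted p = 0.98), and the groups overlapped. The allele is a small deletion within the gene, which a count over the whole gene does not see, so these values check neither label. The paralogue gfi1aa, which promotes primitive red cell formation, was at 11.4 and 11.2 CPM in gfi1ab-/- and 10.7 and 10.9 in WT (log2 fold change 0.07, SE 0.16, adjusted p = 0.84). The red cell paralogue gfi1b was at 5.31 and 5.39 CPM in gfi1ab-/- and 3.45 and 2.57 in WT, with both mutant libraries above both WT libraries, but it missed the threshold (log2 fold change 0.83, SE 0.26, adjusted p = 0.053). It passed with no filter on low counts (adjusted p = 0.014), with a newer form of the test (0.043) and with a replicate block (0.043), over a range of 0.014 to 0.31. In the other 12 libraries gfi1b lay between 2.63 and 5.75 CPM. The list of the gfi1 genes and their cofactors, which holds the demethylase gene kdm1a (Lsd1), rcor1 to rcor3, and hdac1, had 0 of 14 members past the threshold (2 at an unadjusted p under 0.05, 0 with DESeq2 on all libraries, and 1, gfi1b, with no filter), with a median log2 fold change of 0.11.

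Few blood genes passed the threshold in gfi1ab-/-. An embryonic beta globin rose and a myeloid transcription factor gene fell. Of 7 erythroid genes that the study names, a choice made with these libraries in view, 0 passed the threshold (1 at an unadjusted p under 0.05, 0 with DESeq2 on all libraries, and 1, hbae3, with no filter on low counts), and their median log2 fold change was 0.20. The erythroid transcription factor gata1a was at 17.4 and 14.8 CPM in gfi1ab-/- and 14.1 and 13.2 in WT (log2 fold change 0.24, SE 0.14, adjusted p = 0.33). The haem synthesis enzyme alas2 was at 11.4 and 8.14 CPM in gfi1ab-/- and 11.4 and 5.91 in WT, with overlapping groups, and the beta globin hbbe3 at 20.4 and 16.2 CPM in gfi1ab-/- and 19.7 and 16.2 in WT. The alpha globin hbae3 was at 17.6 and 13.1 CPM in gfi1ab-/- and 10.9 and 9.86 in WT, a difference that missed the threshold (log2 fold change 0.56, SE 0.21, adjusted p = 0.11) and passed it only with no filter (adjusted p = 0.029, range over all alternatives 0.029 to 0.54). The remaining 3, the membrane skeleton genes sptb and epb41b and the transferrin receptor tfr1a, had log2 fold changes of -0.01, 0.46 and 0.20. Of 20 other erythroid genes, 1 was higher and 0 lower, a share (5%) near the 5.46% of all genes that were higher. That gene was the embryonic beta globin hbbe1.1, at 16.2 and 12.6 CPM in gfi1ab-/- and 3.55 and 2.29 in WT (log2 fold change 2.30, SE 0.27, adjusted p = 8.9e-05). The globin genes lie in families of similar sequence, and counting that leaves out reads with several matches makes the level of a single copy uncertain. In bulk samples like these, fewer cells of a type and less RNA per cell cannot be told apart.

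The myeloid transcription factor gene spi1b (pu.1), which drives the myeloid fate of primitive blood cells, fell in gfi1ab-/-. It was at 5.02 and 4.32 CPM in gfi1ab-/- and 9.19 and 8.33 in WT (log2 fold change -0.91, SE 0.19, adjusted p = 0.0065), a fitted level of 0.531 of WT. All 8 libraries that carry the gfi1ab mutation had less spi1b than all 8 that do not, 2.29 to 6.51 CPM in the 8 gfi1ab mutant libraries and 7.82 to 10.7 CPM in the 8 others. The same split held for 0.467% of all genes tested and for 4.05% of the genes lower in gfi1ab-/-. The gene spi1b was chosen for its call against WT, which already sets gfi1ab-/- and WT apart. Its log2 fold change between mutant and intact gfi1ab was -0.64 on the gfi1b-/- background (adjusted p = 0.072), -1.72 on gfi1aa-/- (adjusted p = 1.4e-04) and -1.39 on gfi1aa/1b DM (adjusted p = 0.002). The call against WT was lost without gfi1ab-/- replicate 2 (adjusted p = 0.067), and over all alternatives the adjusted p ranged from 0.00021 to 0.067. Of 8 primitive myeloid genes tested of 18 listed, and of 12 blood progenitor transcription factors tested of 14 listed, spi1b was the only member past the threshold, in both lists (12.5% and 8.33% of members, beside 10.3% of all genes).

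Few endothelial genes passed the threshold, and none of those that the study names, a choice also made with these libraries in view. Of etv2, sox7, flt4, cdh5, clec14a and egfl7, 0 of 6 passed the threshold (1 at an unadjusted p under 0.05, and 0 with DESeq2 on all libraries), with a median log2 fold change of -0.07. The early endothelial and blood regulator etv2 was at 50.5 and 50.6 CPM in gfi1ab-/- and 46.7 and 51.8 in WT (log2 fold change 0.04, SE 0.08, adjusted p = 0.81). The endothelial transcription factor gene sox7 was at 12 and 13.4 CPM in gfi1ab-/- and 15.5 and 12.5 in WT, with overlapping groups. Among 27 other endothelial genes, 0 were higher and 2 lower (7.41%, beside 10.3% of all genes). The scavenger receptor gene stab2 was at 9.8 and 11.3 CPM in gfi1ab-/- and 21.1 and 16.7 in WT (log2 fold change -0.83, SE 0.17, adjusted p = 0.0061). The receptor gene tie1, which acts with the angiopoietin receptor, was at 6.65 and 5.26 CPM in gfi1ab-/- and 12.3 and 9.29 in WT (log2 fold change -0.86, SE 0.19, adjusted p = 0.0086). Both calls depended on single libraries, since stab2 had an adjusted p of 0.067 without gfi1ab-/- replicate 1 and 0.071 without WT replicate 1, and tie1 of 0.092 without gfi1ab-/- replicate 2 and 0.094 without WT replicate 1.

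**Figure D2:**
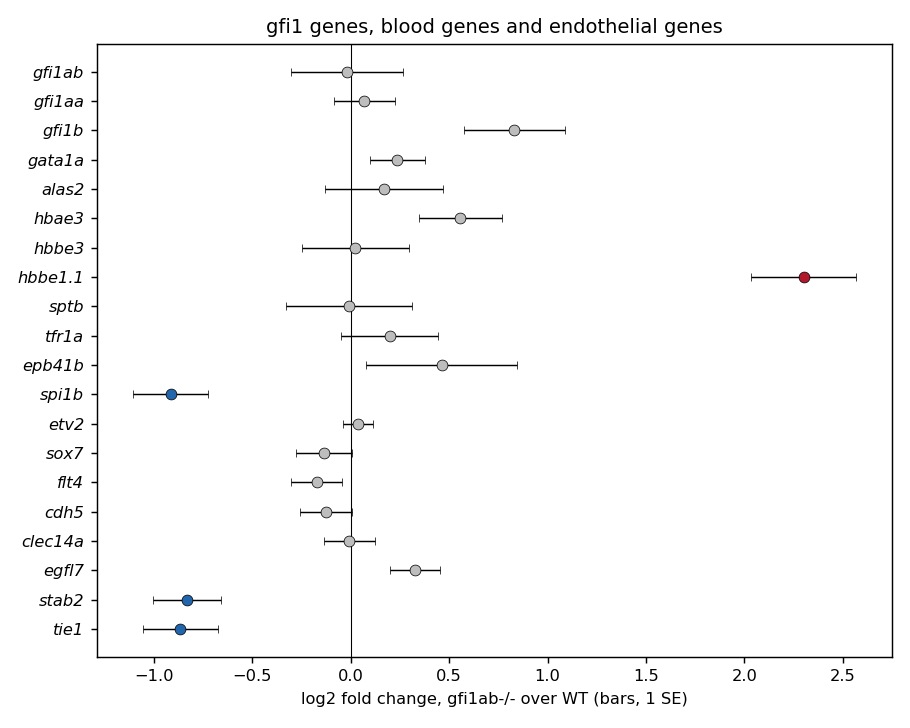
Log2 fold change of gfi1ab-/- over WT (horizontal, bars 1 SE) for the gfi1 genes, blood genes and endothelial genes, red or blue where past the threshold and grey where not. The beta globin hbbe1.1 stands at 2.30, spi1b, stab2 and tie1 between -0.83 and -0.91, and gata1a, etv2 and sox7 lie near 0.

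Of the 10 genes with the largest rises, 4 had 3 counts or fewer in each WT library, and the ggact genes and zinc finger genes among them belong to families of near copies. The ggact genes encode gamma-glutamylamine cyclotransferases. The copy ggact.3 had 0 counts in both WT libraries and 20.6 and 21.9 CPM in gfi1ab-/-, at least 145-fold higher than WT when WT is set at 3 counts per library. Its neighbour ggact.2 was likewise at 0 in WT and at 16.3 and 17.8 CPM in gfi1ab-/-, at least 117-fold higher. Both were also at 0 in all libraries of gfi1aa/1b DM and gfi1aa/1ab DM, at 9.42 and 3.5 CPM (ggact.3) in gfi1 TM, and at 14.6 and 15.9 CPM (ggact.3) in gfi1b/1ab DM. The transporter gene slc47a2.2, of the family that exports organic cations, was at 9.22 and 6.38 CPM in gfi1ab-/- and 0 and 0.0476 in WT, at least 53.3-fold higher, and between 2.04 and 14.6 CPM in the other 12 libraries. The zinc finger gene znf977 was at 6.19 and 9.4 CPM in gfi1ab-/- and 0.050 and 0.0952 in WT, also at least 53.3-fold higher. In the other 12 libraries it lay between 0.664 and 10.95 CPM, all above WT. A further zinc finger gene, znf569l, was at 5.84 and 7.24 CPM in gfi1ab-/- and 0.30 and 0.381 in WT.

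The other large rises, like that of znf569l, had some counts in WT. The microtubule regulator gene rmdn1 was at 14.8 and 14.3 CPM in gfi1ab-/- and 0.0999 and 0.572 in WT (log2 fold change 5.39, SE 0.30, adjusted p = 9.3e-08), and between 6.6 and 15.2 CPM in the other 12 libraries. The kinase gene prkcq (protein kinase C theta, a signalling kinase of T cells in mammals) was at 15.2 and 18.9 CPM in gfi1ab-/- and 0.15 and 0.667 in WT. For UBLCP1, which encodes a phosphatase of the proteasome, the values were 13.7 and 19.1 CPM in gfi1ab-/- and 0.40 and 0.429 in WT. Among the other genotypes UBLCP1 was high only in gfi1aa-/-, at 8.49 and 13.6 CPM in gfi1aa-/-, and at 0.278 CPM or less in each of the other 10 libraries. The caspase gene casp23 was at 4.73 and 6.2 CPM in gfi1ab-/- and 0.15 and 0.381 in WT and the acyltransferase-like gene hhatlb at 4.73 and 6.02 CPM in gfi1ab-/- and 0.45 and 0.0952 in WT. In the other 12 libraries casp23 lay between 0.763 and 5.43 CPM, all above WT. The adjusted p of the 10 genes ranged from 9.3e-08 to 0.004. For these 10 genes no gfi1ab-/- library overlapped WT, which was a condition for naming them and held for 52.2% of all genes tested. Over all genes, 17 were at 3 counts or fewer in both WT libraries and at 5 CPM or more in gfi1ab-/-, and 12 of them were above 3 counts in at least 1 library of every one of the 6 other genotypes.

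The genes with the largest falls were of mixed function, and 3 of the 10 named were zinc finger genes. The glucosidase gene gba3 was at 0 and 0.0899 CPM in gfi1ab-/- and 5.9 and 5.76 in WT, at least 37.6-fold lower when gfi1ab-/- is set at 3 counts per library. It was at 0.0504 and 0.0995 CPM in gfi1b/1ab DM, but at 7.96 and 4.37 CPM in gfi1aa/1ab DM and 0.34 and 6.17 CPM in gfi1 TM. The leucine-rich secreted protein gene lgi2a was at 0.0584 and 0.225 CPM in gfi1ab-/- and 5.15 and 6.95 in WT (log2 fold change -5.26, SE 0.67, adjusted p = 1.9e-04). The tubulin-binding gene tppp was at 0.233 and 0.36 CPM in gfi1ab-/- and 9.79 and 11.1 in WT (log2 fold change -5.08, SE 0.42, adjusted p = 4.2e-06), and the other 12 libraries, between 0.202 and 3.61 CPM, all lay below WT. The neurobeachin gene nbeab was at 0.992 and 1.12 CPM in gfi1ab-/- and 10.9 and 12.3 in WT, the small GTPase gene rnd2 at 0.992 and 0.944 CPM in gfi1ab-/- and 10.3 and 8.29 in WT, the calcium channel gene cacna1ba at 2.51 and 2.38 CPM in gfi1ab-/- and 13.7 and 26 in WT and the adenylate cyclase gene adcy8 at 1.81 and 0.989 CPM in gfi1ab-/- and 10.4 and 11.3 in WT. For cacna1ba, the low level was shared with gfi1b/1ab DM (2.97 and 3.28 CPM), 1 library of gfi1aa/1ab DM was at 3.25 CPM, and the other 9 lay at 13.8 CPM or more. For adcy8, the other 12 libraries lay between 1.29 and 5.91 CPM, all below WT. The zinc finger genes were znf1025 at 0.642 and 0.045 CPM in gfi1ab-/- and 6.15 and 7.05 in WT, znfl1 at 0.525 and 0.629 CPM in gfi1ab-/- and 6.25 and 5.43 in WT and znfl1i at 1.58 and 1.35 CPM in gfi1ab-/- and 9.99 and 17.8 in WT. The znfl1 genes are near copies of each other and moved in both directions, with znfl1h at 26.7 and 28.3 CPM in gfi1ab-/- and 12.1 and 16.3 in WT, so reads may be shared among copies. The adjusted p of the 10 genes ranged from 2.4e-06 to 0.0087. The call of znfl1i was lost without gfi1ab-/- replicate 1, without gfi1ab-/- replicate 2 and without WT replicate 2 (adjusted p of 0.063, 0.074 and 0.068).

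The genes with the lowest p-values combined small spread with a change of more than 2-fold. The hatching enzyme gene he1.2, whose product digests the egg envelope, was at 15.9 and 16.3 CPM in gfi1ab-/- and 92.4 and 114 in WT (log2 fold change -2.67, SE 0.14, adjusted p = 6.2e-08). Its levels differed widely among genotypes, from 20.4 and 16.3 CPM in gfi1aa/1ab DM to 92.8 and 87.2 CPM in gfi1 TM outside WT. The relative he1.1 went the other way without passing (log2 fold change 0.32, adjusted p = 0.061), and a split of reads between he1.1 and he1.2 was not tested. The nuclear lamina gene lmnb2 (lamin B2) was at 519.5 and 485 CPM in gfi1ab-/- and 177 and 194 in WT (log2 fold change 1.44, SE 0.09, adjusted p = 1.9e-07), and the other 12 libraries, between 321 and 491 CPM, all lay above WT. The same held for rad18, which encodes a ubiquitin ligase of DNA damage tolerance, at 28.7 and 29.2 CPM in gfi1ab-/- and 9.64 and 8.19 in WT (log2 fold change 1.70, SE 0.12, adjusted p = 1.8e-06) and between 25.6 and 33.7 CPM in the other 12. The cytochrome P450 gene cyp2aa6 was at 15.6 and 13.2 CPM in gfi1ab-/- and 3.55 and 3.48 in WT and between 9.37 and 21.5 CPM in the other 12. The clotting factor gene f13a1b was at 17.3 and 16.1 CPM in gfi1ab-/- and 43.6 and 41.5 in WT and between 13.3 and 30.3 CPM in the other 12, and the selenoprotein gene selenow2b at 7.18 and 7.15 CPM in gfi1ab-/- and 22.2 and 23.5 in WT. For lmnb2, rad18, cyp2aa6, f13a1b and selenow2b, WT lay outside the range of all 14 other libraries.

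The retinol carrier gene rbp4 was higher with mutant gfi1ab where gfi1aa was intact. It encodes the plasma carrier of retinol, is expressed in the yolk syncytial layer of the embryo, and was at 84.3 and 73.1 CPM in gfi1ab-/- and 32.2 and 27.7 in WT (log2 fold change 1.39, SE 0.11, adjusted p = 2.7e-06). It was at 80.6 and 68.3 CPM in gfi1b/1ab DM against 21.3 and 22.6 CPM in gfi1b-/- (log2 fold change 1.76, adjusted p = 2.3e-06). With gfi1aa mutated the difference was smaller, 51.9 and 57 CPM in gfi1aa/1ab DM against 44.3 and 47.9 CPM in gfi1aa-/- (log2 fold change 0.24, adjusted p = 0.12), and 31.9 and 30.9 CPM in gfi1 TM against 26 and 22.6 CPM in gfi1aa/1b DM (log2 fold change 0.37, adjusted p = 0.073). The change in gfi1aa-/- was smaller than that in WT by 1.15 on the log2 scale (interaction -1.15, SE 0.15, adjusted p = 1.9e-04). The gene was chosen for its change against WT, which the interaction subtracts, so the sign is in part set by the choice. Of 23 yolk syncytial layer and plasma protein genes, 1 was higher and 0 lower (4.35%, beside 10.3% of all genes), with a median log2 fold change of 0.14. The count of higher members was 3 without gfi1ab-/- replicate 1 and 4 without WT replicate 1.

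Across all 16 libraries, few called genes followed the gfi1ab genotype alone. Of the 1087 higher genes, 44 (4.05%) were higher in all 8 libraries with mutant gfi1ab than in all 8 without, and of the 962 lower genes 39 (4.05%) were lower in all 8. Over all genes tested the shares were 0.432% and 0.467%. The pattern requires both gfi1ab-/- libraries to differ from both WT libraries, so a higher share among called genes follows in part from the call. The genes given here were chosen after their values were seen. The serine synthesis enzyme gene phgdh was at 141 to 174 CPM in the 8 gfi1ab mutant libraries and 97.3 to 126 CPM in the 8 others. The helicase subunit gene mcm6 was at 578 to 677 CPM in the 8 gfi1ab mutant libraries and 513 to 573 CPM in the 8 others, so that its groups nearly touched, and it did not pass the threshold on gfi1b-/-, gfi1aa-/- or gfi1aa/1b DM (adjusted p of 0.067, 0.061 and 0.56). The histone methyltransferase gene ezh2 was at 100.4 to 128 CPM in the 8 gfi1ab mutant libraries and 56.8 to 100.2 CPM in the 8 others, and the Wnt inhibitor gene notum1a at 12.1 to 19 CPM in the 8 gfi1ab mutant libraries and 19 to 26.7 CPM in the 8 others, with groups that nearly touched in both. The small GTPase gene rac1b was lower, at 21.8 to 41.9 CPM in the 8 gfi1ab mutant libraries and 46.8 to 60.9 CPM in the 8 others. A gene with the symbol RAC1 moved the other way over the same libraries, at 7.36 to 14.1 CPM in the 8 gfi1ab mutant libraries and 2.19 to 7.31 CPM in the 8 others, and the split of reads between these copies is uncertain.

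**Figure D3:**
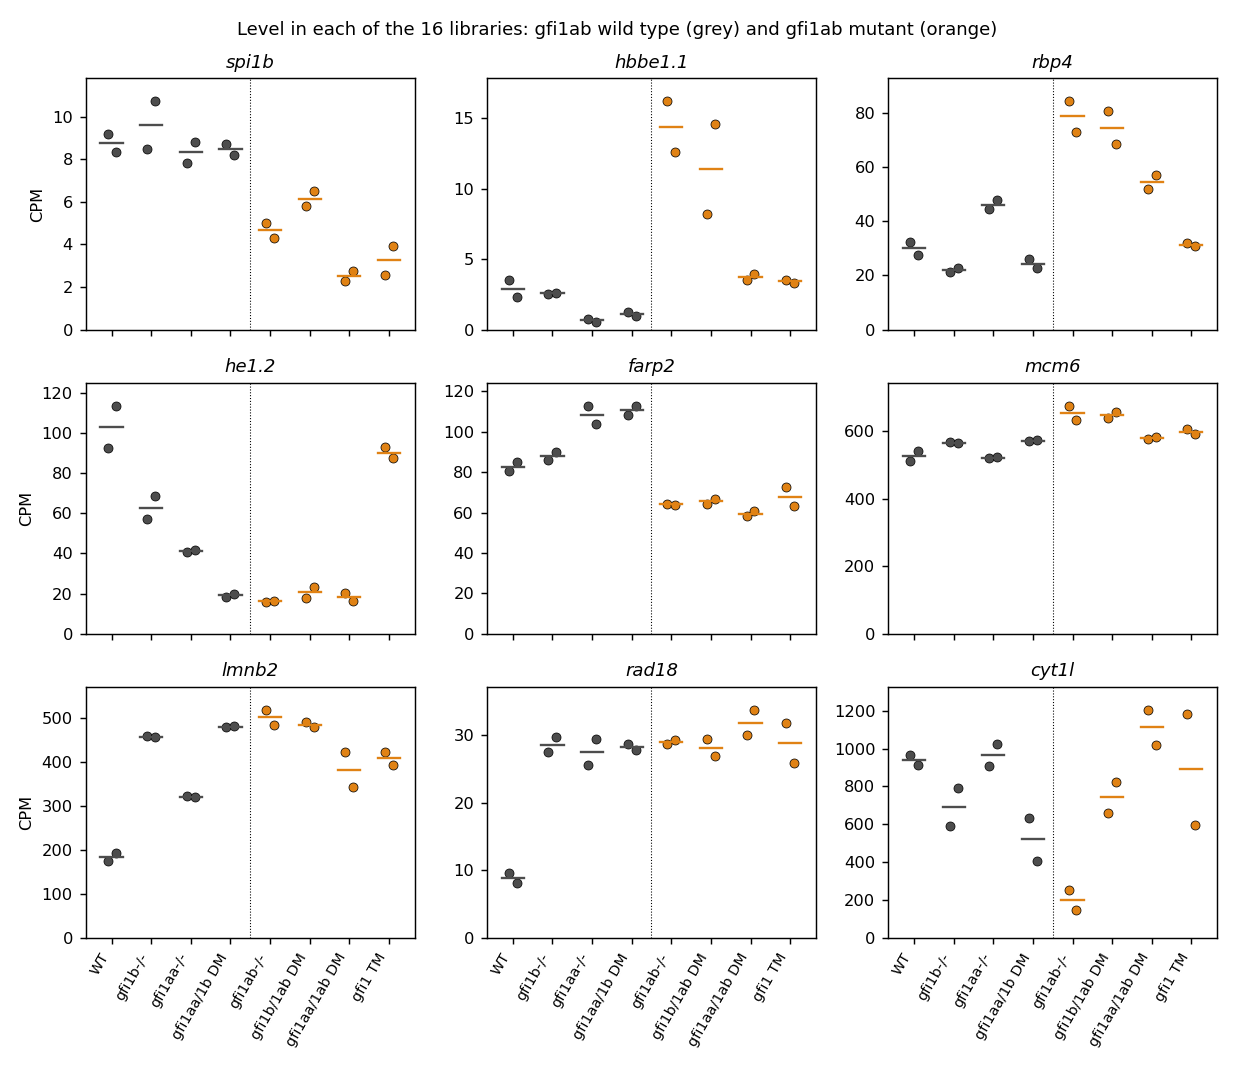
CPM in each of the 16 libraries for 9 genes, with the 4 genotypes with wild-type gfi1ab left of the dotted line (grey) and the 4 with mutant gfi1ab right of it (orange), points for libraries and bars for means of 2. In spi1b, farp2 and mcm6 the 8 orange points part from the 8 grey points, in lmnb2 and rad18 WT alone is low, and in cyt1l gfi1ab-/- alone is low.

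WT lay at an extreme of the whole series in a large share of called genes. Both WT libraries were below all 14 others in 484 of the 1087 higher genes (44.5%, against 4.94% of all genes tested), and above all 14 others in 409 of the 962 lower genes (42.5%, against 4.17%). A call against WT already sets WT apart from gfi1ab-/-, so these shares follow in part from the call. When the 8 libraries with intact gfi1aa were taken alone, the 4 with mutant gfi1ab were above the 4 without in 506 of the 1087 (46.6%, against 6.58% of all genes) and below them in 391 of the 962 (40.6%, against 5.96%), shares to which the same limit applies. The comparison of gfi1ab-/- with gfi1b-/-, which does not use WT, called 584 genes higher (2.93%) and 489 lower (2.46%), 5.39% in all. Against gfi1b/1ab DM, gfi1ab-/- had 27 genes higher (0.136%) and 49 lower (0.246%), 0.382% in all, which was the smallest count among the 28 pairs of genotypes. The other genotypes with intact gfi1aa were about as far from WT as gfi1ab-/- was. In gfi1b-/-, 921 genes were higher (4.63%) and 961 lower (4.83%) than in WT, 9.46% in all, and in gfi1b/1ab DM 1146 were higher (5.76%) and 964 lower (4.84%), 10.6% in all.

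Epidermal genes were the list with the most members past the threshold. Of 33 epidermis, keratin and claudin genes, 7 were higher and 5 lower, against 5.46% and 4.83% of all genes, and the median log2 fold change was -0.01. The adhesion gene epcam was at 299 and 283 CPM in gfi1ab-/- and 162 and 154 in WT (log2 fold change 0.88, SE 0.09, adjusted p = 2.5e-05), and between 174 and 292 CPM in the other 12 libraries, all above WT. The keratin gene krt5, among the most abundant transcripts, was at 7531 and 6860 CPM in gfi1ab-/- and 5195 and 5231 in WT (log2 fold change 0.46, SE 0.07, adjusted p = 5.1e-04), and krt18a.1 at 1229 and 1363 CPM in gfi1ab-/- and 896 and 622 in WT (log2 fold change 0.77, SE 0.13, adjusted p = 0.0012). In the other 12 libraries krt18a.1 lay between 1075 and 2000 CPM, all above WT. The other higher members were the keratin genes krt8, at 2127 and 2175 CPM in gfi1ab-/- and 1694 and 1587 in WT, and krt96, at 5.08 and 5.12 CPM in gfi1ab-/- and 1.05 and 0.857 in WT, and the S100 family genes icn, at 49.8 and 43.9 CPM in gfi1ab-/- and 32.5 and 24.6 in WT, and icn2, at 26.4 and 21.5 CPM in gfi1ab-/- and 15.2 and 14.8 in WT. Among the lower members, the type I keratin gene cyt1l was at 255 and 147 CPM in gfi1ab-/- and 965 and 913 in WT (log2 fold change -2.23, SE 0.30, adjusted p = 2.9e-04), below every other library of the series, which lay between 407 and 1205 CPM outside WT. A second keratin gene, krt91, was at 7.06 and 3.82 CPM in gfi1ab-/- and 24.4 and 25.7 in WT (log2 fold change -2.23, SE 0.37, adjusted p = 0.0013), and likewise between 15.9 and 42.1 CPM in the other 12. Lower levels were also found for krt17, at 366 and 324 CPM in gfi1ab-/- and 564 and 494 in WT, and krt94, at 1.98 and 1.57 CPM in gfi1ab-/- and 5.0 and 2.81 in WT. The claudin gene cldne was at 139 and 129 CPM in gfi1ab-/- and 165 and 169 in WT (log2 fold change -0.32, SE 0.07, adjusted p = 0.0067), a call lost without gfi1ab-/- replicate 2 (adjusted p = 0.064) and without WT replicate 2 (adjusted p = 0.061). The counts of higher and lower members were 4 and 3 without gfi1ab-/- replicate 1, 5 and 2 without gfi1ab-/- replicate 2, 5 and 3 without WT replicate 1, and 4 and 4 without WT replicate 2.

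A few replication genes rose, most by small amounts. Of 31 DNA replication and mitosis genes tested, 5 were higher and 0 lower (16.1%, beside 10.3% of all genes), with a median log2 fold change of 0.10. The licensing helicase gene mcm6 was at 677 and 635 CPM in gfi1ab-/- and 513 and 542 in WT (log2 fold change 0.31, SE 0.06, adjusted p = 0.0023), mcm5 at 562 and 514 CPM in gfi1ab-/- and 449 and 467 in WT, mcm4 at 537 and 508 CPM in gfi1ab-/- and 428 and 467 in WT, and the licensing factor gene cdt1 at 85.8 and 75.4 CPM in gfi1ab-/- and 60.4 and 64.2 in WT (log2 fold change 0.37, SE 0.08, adjusted p = 0.0096). The fitted fold was 1.17 for mcm4 (adjusted p = 0.026) and for mcm5 (adjusted p = 0.021). The fifth, a gene annotated as rrm2 (the small subunit of ribonucleotide reductase), was at 308 and 329 CPM in gfi1ab-/- and 118 and 13.8 in WT, with the WT libraries far apart, and lost its call without gfi1ab-/- replicate 1 and without gfi1ab-/- replicate 2 (adjusted p of 0.060 and 0.061). A second gene with the symbol rrm2 was at 113 and 45.6 CPM in gfi1ab-/- and 251 and 376 CPM in WT, which did not pass the threshold, and the split of reads between these copies is uncertain. Without gfi1ab-/- replicate 1, 1 member remained past the threshold, and without WT replicate 1, 2. Among the losses were cdt1 (adjusted p of 0.11 and 0.079), mcm4 (0.15 and 0.22) and mcm5 (0.17 and 0.14) without these libraries, and mcm5 also had an adjusted p of 0.068 without WT replicate 2.

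Of 33 circadian clock genes, 3 were higher and 0 lower, a share (9.09%) near the 10.3% of all genes, with a median log2 fold change of -0.03. The melatonin synthesis enzyme gene aanat2 was at 4.9 and 6.61 CPM in gfi1ab-/- and 1.7 and 1.62 in WT (log2 fold change 1.80, SE 0.26, adjusted p = 5.7e-04) and between 1.8 and 7.74 CPM in the other 12. The clock repressor gene ciarta was at 7.12 and 8.72 CPM in gfi1ab-/- and 3.95 and 2.48 in WT (log2 fold change 1.31, SE 0.33, adjusted p = 0.019). It lay between 5.83 and 19.5 CPM in the other 12, all above WT. The nuclear receptor gene nr1d2b, a Rev-erb repressor of the clock loop, was at 22.6 and 18.7 CPM in gfi1ab-/- and 12.5 and 9.62 in WT (log2 fold change 0.90, SE 0.23, adjusted p = 0.019). The core genes per1b, per2, per3, cry1a, clocka and arntl1a did not pass. Without WT replicate 2, only aanat2 passed, with ciarta at an adjusted p of 0.18 and nr1d2b at 0.17, without gfi1ab-/- replicate 2 ciarta was at 0.11, and without gfi1ab-/- replicate 1 nr1d2b was at 0.13.

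Of 21 cholesterol and lipid synthesis genes, 3 were higher, beside 5.46% of all genes, with a median log2 fold change of 0.04. The fatty acid synthase gene fasn was at 51.8 and 50.2 CPM in gfi1ab-/- and 31.7 and 19.8 in WT (log2 fold change 0.99, SE 0.16, adjusted p = 1.0e-03), and the isoprenoid gene idi1 at 116 and 111 CPM in gfi1ab-/- and 96.6 and 82.3 in WT (log2 fold change 0.34, SE 0.08, adjusted p = 0.014). The desaturase gene scd had few reads, 2.04 and 2.61 CPM in gfi1ab-/- and 1.4 and 1.1 in WT. Without WT replicate 2 only fasn passed among the higher members, and idi1 (adjusted p = 0.18) and scd (0.22) did not. The call of idi1 was also lost without gfi1ab-/- replicate 1 (0.091), and that of scd without gfi1ab-/- replicate 2 (0.20) and WT replicate 1 (0.062).

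**Figure D4:**
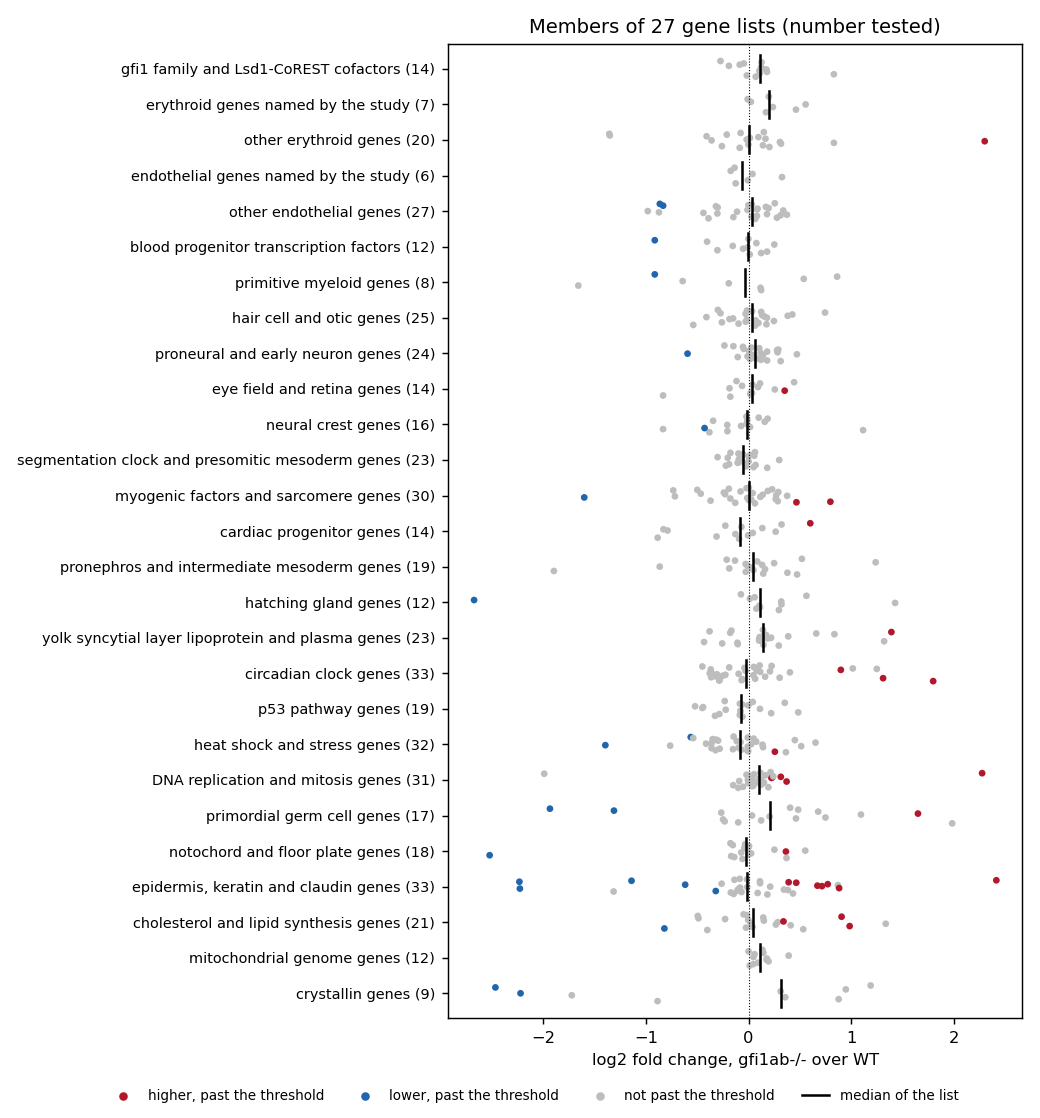
Log2 fold change of gfi1ab-/- over WT (horizontal) for each tested member of 27 gene lists, red or blue where past the threshold and grey where not, with a black bar at the median of the list. Most members lie within 0.5 of 0, and the epidermal list has the most members past the threshold, 7 higher and 5 lower of 33.

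Muscle, heart and germ cell lists held 1 to 3 called members each, which is 10%, 7.14% and 17.6% of their members beside 10.3% of all genes, so that the muscle and heart shares were at or below that of all genes. Of 30 myogenic and sarcomere genes, 2 were higher and 1 lower, with the calcium pump gene atp2a1 at 70.197 and 64.3 CPM in gfi1ab-/- and 42.9 and 34.5 in WT (log2 fold change 0.80, SE 0.18, adjusted p = 0.012), the actin gene actc1b at 502 and 387 CPM in gfi1ab-/- and 331 and 312 in WT and the myosin gene myhz1.1 at 0.70 and 1.21 CPM in gfi1ab-/- and 3.35 and 2.62 in WT. Without gfi1ab-/- replicate 1 and without WT replicate 2, none of the 3 passed (adjusted p from 0.051 to 0.38), and without WT replicate 1 neither actc1b (0.12) nor myhz1.1 (0.12) passed. Of 14 cardiac genes, the troponin gene tnnt2a was higher, at 10.9 and 9.26 CPM in gfi1ab-/- and 7.79 and 5.48 in WT, a call lost without gfi1ab-/- replicate 1, without gfi1ab-/- replicate 2 and without WT replicate 2 (adjusted p of 0.22, 0.051 and 0.31). Of 17 germ cell genes, 1 was higher and 2 lower. The germ cell survival gene nanos3 was at 8.75 and 5.3 CPM in gfi1ab-/- and 1.55 and 2.86 in WT (log2 fold change 1.65, SE 0.38, adjusted p = 0.011), and the germ granule genes tdrd6 and tdrd7b at 2.68 and 1.35 CPM in gfi1ab-/- and 4.1 and 5.71 in WT and at 0.175 and 0.899 CPM in gfi1ab-/- and 2.2 and 2.19 in WT. Libraries of the other genotypes lay at 3.89 to 12.2 CPM for nanos3, 0.866 to 2.46 CPM for tdrd6 and 0.634 to 1.54 CPM for tdrd7b. For all 3 genes WT thus lay outside the range of all other libraries. The call of nanos3 was lost without gfi1ab-/- replicate 1 and without WT replicate 1 (0.12 and 0.11), that of tdrd6 without gfi1ab-/- replicate 2 and without WT replicate 2 (0.094 and 0.095), and that of tdrd7b without every library but gfi1ab-/- replicate 2 (0.057 to 0.11).

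In the neural and sensory lists, 1 or 2 members passed the threshold or none did. Of the proneural, eye and neural crest lists, 4.17%, 7.14% and 6.25% passed, beside 10.3% of all genes. The called eye gene, pax6b, lay between 55.4 and 66.6 CPM in the other 12 libraries, all above WT. Of 24 proneural and early neuron genes, 1 gene with the symbol her4.2, a Notch target, was lower (log2 fold change -0.59). It was at 7.64 and 7.64 CPM in gfi1ab-/- and 12 and 11 in WT. Its call was lost without any 1 of the 4 libraries. A second gene with this symbol went the other way, at 7.06 and 7.87 CPM in gfi1ab-/- and 4.05 and 6.71 in WT. It did not pass the threshold (log2 fold change 0.47, adjusted p = 0.21), and the split of reads between these copies is uncertain. Of 14 eye field and retina genes, pax6b was higher, at 60.9 and 62.7 CPM in gfi1ab-/- and 47.5 and 49.4 in WT, a call lost without each library but gfi1ab-/- replicate 1 (0.056 to 0.085), and of 16 neural crest genes pax3a was lower, at 37.5 and 35.8 CPM in gfi1ab-/- and 45.8 and 52.9 in WT (log2 fold change -0.43, SE 0.08, adjusted p = 0.0031), lost without WT replicate 2 (0.054). The hair cell and otic list, in which Gfi1 is known for its role in mammals, had 0 of 25 past the threshold (1 at an unadjusted p under 0.05, 0 with DESeq2 on all libraries, and 1 without gfi1ab-/- replicate 2), with the hair cell regulator atoh1a at 5.66 and 4.45 CPM in gfi1ab-/- and 5.2 and 4.43 in WT. The crystallin gene crygn2 fell, at 3.44 and 2.56 CPM in gfi1ab-/- and 16.6 and 16.3 in WT (log2 fold change -2.47, SE 0.21, adjusted p = 5.0e-06), and between 1.74 and 12.3 CPM in the other 12 libraries. The second of 2 lower members among 9 crystallins, crybb1, had 2 to 16 counts and lost its call without any 1 library. These 2 of 9 stand beside 4.83% of all genes that were lower. Other members moved in both directions without passing, with cryba4 at a log2 fold change of -1.72 (adjusted p = 0.052) and crygmx at 0.95 (adjusted p = 0.057).

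In the remaining lists, 1 member or none passed in each direction, apart from the heat shock and stress list, of which 9.38% passed, beside 10.3% of all genes. Of 32 members there, the stress transcription factor gene atf4a was higher, at 508 and 430.1 CPM in gfi1ab-/- and 392 and 393 in WT (404 to 527 CPM in the other 12 libraries, all above WT), and the chaperone genes hsp70.3, at 3.27 and 4.0 CPM in gfi1ab-/- and 5.3 and 13.9 in WT, and serpinh1b, at 439 and 572 CPM in gfi1ab-/- and 701 and 793 in WT, were lower. Each of these calls was lost without at least 1 library. For atf4a these were gfi1ab-/- replicate 1, WT replicate 1 and WT replicate 2 (0.39, 0.16 and 0.18), for hsp70.3 gfi1ab-/- replicate 1, gfi1ab-/- replicate 2 and WT replicate 2 (0.16, 0.083 and 0.43), and for serpinh1b gfi1ab-/- replicate 1, WT replicate 1 and WT replicate 2 (0.26, 0.055 and 0.19). Of 18 notochord and floor plate genes, the Hedgehog effector gene gli1 was higher, at 109 and 117 CPM in gfi1ab-/- and 90.8 and 84.5 in WT, and the cartilage collagen gene col9a1a lower, at 0.642 and 0.225 CPM in gfi1ab-/- and 1.85 and 2.95 in WT. Both were lost without gfi1ab-/- replicate 2 (0.11 and 0.087) and without WT replicate 2 (0.15 and 0.068). Of 12 hatching gland genes, he1.2 alone passed, while its relative he1.1 was at 471 and 511 CPM in gfi1ab-/- and 421 and 366 CPM in WT. No member passed among 23 segmentation clock, 19 pronephros, 19 p53 pathway or 12 mitochondrial genome genes (3, 3, 3 and 1 at an unadjusted p under 0.05, and 0, 0, 0 and 1 with DESeq2 on all libraries). With no filter on low counts 1, 2, 1 and 1 passed, and 2 pronephros genes passed without WT replicate 1 and 1 without WT replicate 2.

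Mutant and intact gfi1ab can also be compared on 3 other backgrounds without using these 4 libraries. By the methods of the study, gfi1aa/1ab DM and gfi1aa-/- came from different crosses, as did gfi1 TM and gfi1aa/1b DM. The cross that gave gfi1b/1ab DM is not stated. In these comparisons a difference of cross and an effect of gfi1ab cannot be told apart. Between gfi1b/1ab DM and gfi1b-/-, 402 genes were higher (2.02%) and 324 lower (1.63%), 3.65% of genes tested in all. Between gfi1aa/1ab DM and gfi1aa-/-, 2325 were higher (11.7%) and 2371 lower (11.9%), 23.6% in all. Between gfi1 TM and gfi1aa/1b DM, 484 were higher (2.43%) and 486 lower (2.44%), 4.87% in all. The genes called in gfi1ab-/- against WT carried over in part. Of the 1087 higher genes, 125 were also higher in gfi1b/1ab DM than in gfi1b-/- and 20 were lower, which is 11.5% and 1.84% of the list and, for the former, 31.1% of the 402. Of the 962 lower genes, 99 were also lower there and 20 higher (10.3% and 2.08%). On the gfi1aa-/- background the directions were mixed. Of the 1087 higher genes, 244 were higher and 249 lower in gfi1aa/1ab DM, and of the 962 lower genes, 195 were lower and 175 higher. On gfi1aa/1b DM, 83 of the 1087 were higher and 24 lower, and 66 of the 962 were lower and 23 higher. The difference between the changes was past the threshold for 574 genes with gfi1b-/- as the other background. Of these, 266 had a more positive and 308 a more negative change there (1.34% and 1.55% of genes tested). With gfi1aa-/- as the other background the numbers were 1009 and 1207 genes (5.07% and 6.06%). In all these were 2.88% and 11.1% of genes tested. Each difference subtracts the change against WT, so the limit on the WT libraries applies here too.

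In all 4 comparisons, which share no library but were fitted together, 16 of the 1087 higher genes were higher and 8 of the 962 lower genes lower. These are few among the 19903 genes tested. The clone-named gene si:ch211-132b12.1 was nearly off without the mutation, at 5.49 to 17.1 CPM in the 8 gfi1ab mutant libraries and 0 to 0.272 CPM in the 8 others, with log2 fold changes of 6.55, 6.79, 6.82 and 7.14 on WT, gfi1b-/-, gfi1aa-/- and gfi1aa/1b DM in that order. The beta globin hbbe1.1 followed, with 2.30, 2.15, 2.5 and 1.67 in the same order. Its levels were 8.22 and 14.6 CPM in gfi1b/1ab DM against 2.56 and 2.58 CPM in gfi1b-/-, 3.56 and 3.92 CPM in gfi1aa/1ab DM against 0.767 and 0.563 CPM in gfi1aa-/-, and 3.54 and 3.33 CPM in gfi1 TM against 1.23 and 0.943 CPM in gfi1aa/1b DM. So hbbe1.1 was higher with mutant gfi1ab on each background, while its level with gfi1aa mutated stayed near that of WT or below. The membrane skeleton gene epb41l3a had 1.36, 0.76, 1.99 and 0.77, the muscle attachment gene nrap 0.88, 0.81, 1.57 and 1.35, the tubulin regulator gene stmn1a 0.40, 0.65, 0.68 and 0.53 and the mitochondrial chaperonin gene hspe1 0.26, 0.29, 0.35 and 0.36. Of the lower genes, rac1b had -1.38, -1.06, -0.49 and -0.51 and the Nogo receptor gene rtn4r -2.80, -1.81, -3.30 and -1.70. The others were eif2b2, itm2bb, phgdh, proca1, slc48a1b, sucla2, si:ch211-281l24.3, si:dkey-16p21.8, zgc:101810 and zgc:174863 among the higher genes, and farp2, scinla, thumpd3, RIMBP2, BX927081.3 and CABZ01046123.1 among the lower ones.

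**Figure D5:**
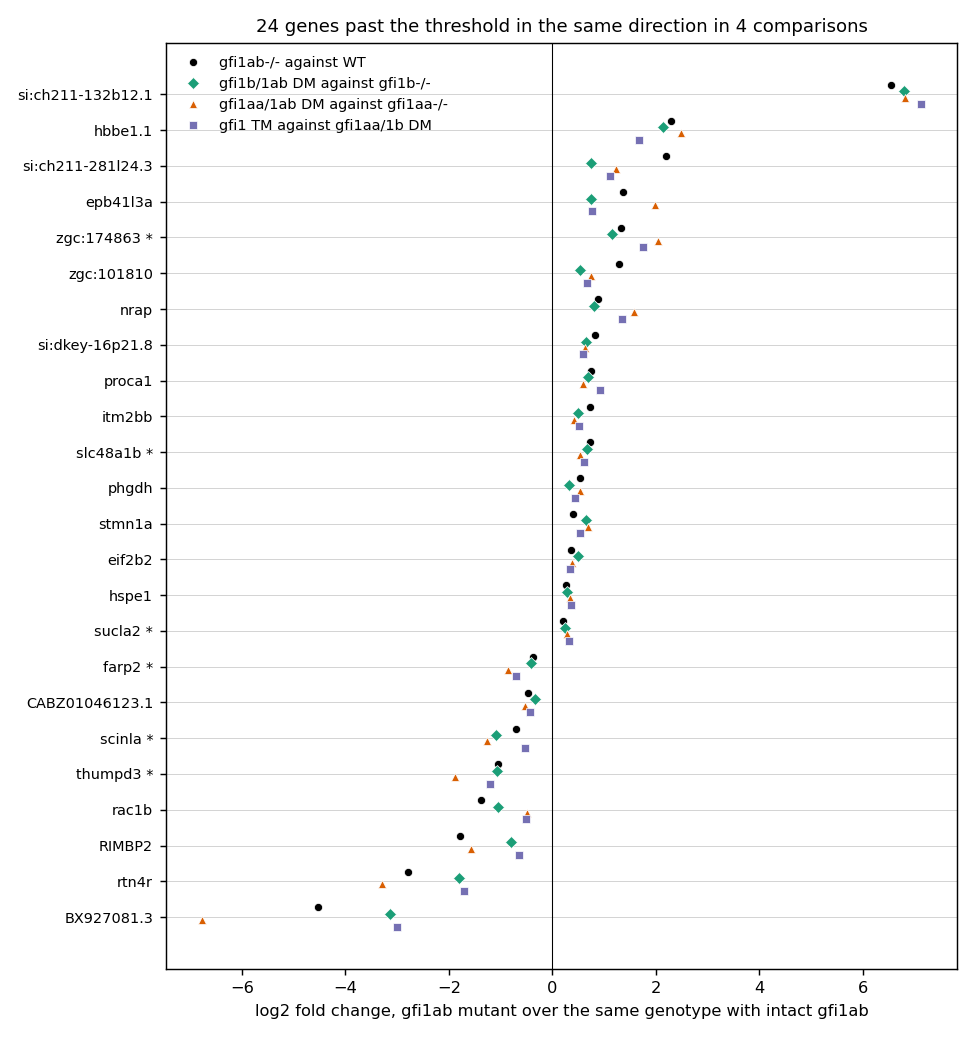
Log2 fold change (horizontal) of a gfi1ab mutant genotype over the same genotype with intact gfi1ab, for the 24 genes past the threshold in the same direction in all 4 comparisons, with an asterisk for genes on the chromosome that holds gfi1ab. The 4 symbols of a gene lie on one side of 0, and si:ch211-132b12.1 has the largest values, 6.55 to 7.14.

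Homozygous mutants chosen by genotype also share the alleles that lie beside gfi1ab, so the position of called genes was examined. Symbols placed 15807 of the 19903 genes (79.4%) in the gene order of the RefSeq table for the GRCz12tu assembly, which differs from the assembly of the counts and was used for order only. Of the 24 genes called in all 4 comparisons, 21 could be placed, and 6 of these (28.6%) lay on the chromosome of gfi1ab, which holds 724 of the placed genes (4.58%). They were slc48a1b, sucla2, zgc:174863, farp2, scinla and thumpd3, at 107, 204, 55, 26, 39 and 90 tested genes from gfi1ab. In gfi1ab-/- against WT alone, the neighbourhood held a smaller share of called genes than elsewhere. Among the 50 tested genes on each side, 1 was higher and 4 lower of 100 (5%), against 14.1% of the rest of that chromosome and 8.99% of other chromosomes. The share of that chromosome was 12.8%, the third highest of 25, which ranged from 5.01% to 15.6%.

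The 5 called neighbours were farp2, scinla, atg4b, sned1 and usp13. The guanine nucleotide exchange factor gene farp2 was at 64.4 and 63.9 CPM in gfi1ab-/- and 80.4 and 84.9 in WT (log2 fold change -0.37, SE 0.08, adjusted p = 0.0062), and all 8 gfi1ab mutant libraries lay at 58.2 to 72.7 CPM, below the 80.4 to 113 CPM of the 8 others. The actin-severing gene scinla was at 14.6 and 12.5 CPM in gfi1ab-/- and 19.98 and 24.1 in WT (log2 fold change -0.70, SE 0.14, adjusted p = 0.0042), with 10.3 to 16.5 CPM in the 8 gfi1ab mutant libraries and 19.98 to 26.2 CPM in the 8 others. The autophagy protease gene atg4b was at 12.5 and 12.6 CPM in gfi1ab-/- and 15.6 and 19.5 in WT (log2 fold change -0.48, SE 0.12, adjusted p = 0.021), with 12.4 to 15.2 CPM in the 8 gfi1ab mutant libraries and 15.6 to 33.2 CPM in the 8 others. The log2 fold change of farp2 between mutant and intact gfi1ab was -0.37, -0.42, -0.87 and -0.70 on WT, gfi1b-/-, gfi1aa-/- and gfi1aa/1b DM. The matrix gene sned1 was at 0.875 and 0.45 CPM in gfi1ab-/- and 1.4 and 2.76 in WT, and the deubiquitinase gene usp13, the one higher neighbour, at 17.8 and 18.7 CPM in gfi1ab-/- and 13.9 and 13.6 in WT. Calls of these genes were lost without WT replicate 2 in all 5 cases (adjusted p of 0.063 for farp2, 0.060 for scinla, 0.23 for atg4b, 0.28 for sned1 and 0.19 for usp13). They were also lost without gfi1ab-/- replicate 2 for scinla (0.054), atg4b (0.088), sned1 (0.20) and usp13 (0.16), without gfi1ab-/- replicate 1 for atg4b (0.11) and usp13 (0.10), and without WT replicate 1 for usp13 (0.12). Over the 16 libraries, the 8 gfi1ab mutant libraries parted from the 8 others in 7 of the 100 neighbours, 3 above (nme7, phb2b and kif1aa) and 4 below (atg4b, farp2, scinla and zc3h3). This share of 7% compared with 1.93% of the rest of the chromosome and 0.902% of other chromosomes. In the other 3 comparisons, 8%, 28% and 13% of the neighbours were called, against 3.33%, 23.5% and 4.97% of genes on other chromosomes, in the order gfi1b-/-, gfi1aa-/- and gfi1aa/1b DM. The part of linked alleles in these differences was not tested.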

How the data were processed

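TRIzol RNA of whole embryos went into NEBNext Ultra libraries. The authors mapped reads with STAR to GRCz11, as the submitters' processing notes also list, and deposited raw read counts per Ensembl gene for 16 libraries, with tool versions not given in the sources used here. The 4 libraries compared had 79.8% to 80.0% of reads on genes, and the 4 lines of unassigned reads were left out. Reads with several matches were not counted on genes, and the sense strand held 50.1% to 50.2% of the reads on strands, so overlapping and antisense genes cannot be told apart.

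Counts of 32520 genes were filtered with filterByExpr to 19903 genes, normalized by TMM and tested with edgeR 4.0.16 in R 4.3.3 (glmQLFit and glmQLFTest), with 1 mean per genotype, 8 residual degrees of freedom over all 16 libraries and Benjamini-Hochberg adjustment over all genes, at 0.05. Levels are CPM on TMM library sizes, and the fitted log2 fold change divided by the root of its F statistic gave the SE. The study used DESeq2, which was kept as an alternative (version 1.42.0). Scripts were tested on simulated data. Genes were named by rule: the 10 largest changes in each direction with at least 5 CPM in 1 group, no overlap and a gene symbol that is not a clone name, the 10 lowest p-values of the same kind, and members of the gene lists past the threshold. Other genes were named after their values were seen, and a few genes that the rule or a list holds are not reported here. The gene lists and the comparison itself were chosen with earlier results of these data known. A gene at 3 counts or fewer was set at 3 counts per library for a bound on its fold. Floors cover counting error only. The SE rests on the spread between replicates over all 16 libraries. The alternatives were other normalization, filters, tools, sets of libraries and call rules, a replicate block and leaving out each of the 4 libraries in turn.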

Additional observations from a re-analysis of the deposited data

Results flagged for a closer look

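The genes below were named in the report and were past the threshold against WT. Their change with mutant gfi1ab differed between backgrounds by an interaction term in the 16-library edgeR fit (adjusted p under 0.05). Each term subtracts the change against WT, so a batch of the WT libraries and an effect of the background cannot be told apart. For lmnb2, rad18, cyp2aa6, f13a1b and selenow2b, WT lay outside the range of all other libraries. All values in these paragraphs are differences of log2 fold changes, the change on the other background minus that against WT. A negative value thus marks a rise that was smaller there, a rise that turned into a fall there, or a larger fall. The rises of UBLCP1 and hhatlb, for example, turned into falls on the gfi1aa-/- background. Where a gene had no or few counts in a group, the value depends on the prior count and bounds nothing. Among these genes are ggact.2, ggact.3, slc47a2.2, znf977, hhatlb, UBLCP1, casp23, gba3, lgi2a and znf1025.

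With gfi1b-/- as the other background, 24 of these genes differed, beside 574 (2.88%) of all 19903 genes tested. Genes were named by rule or after their values were seen, so this number cannot be compared with the share of all genes. Among genes higher in gfi1ab-/- than in WT, the values were -1.40 for cyp2aa6, -0.84 for epcam, -8.30 for ggact.2, -8.38 for ggact.3, -3.87 for hhatlb, -1.36 for lmnb2, -5.33 for prkcq, -1.72 for rad18, -4.63 for rmdn1, -8.12 for slc47a2.2, -5.93 for znf977, -2.61 for krt96, -1.45 for si:ch211-281l24.3 and -0.75 for zgc:101810. Among genes lower in gfi1ab-/-, they were 2.06 for crygn2, 2.33 for cyt1l, 1.07 for he1.2, 3.0 for krt91, 2.27 for nbeab, 0.89 for selenow2b, 2.72 for tdrd7b, 3.06 for znfl1, 2.72 for hsp70.3 and 0.98 for RIMBP2. The genes were chosen for their change against WT, which the difference subtracts, so that a sign opposite to that change is largely set by the choice.

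With gfi1aa-/- as the other background, 46 of these genes differed, beside 2216 (11.1%) of all 19903 genes tested. The same limit from the choice of genes applies. Among genes higher in gfi1ab-/- than in WT, the values were -11.79 for UBLCP1, -1.05 for atp2a1, -3.43 for casp23, -2.43 for cyp2aa6, -0.91 for epcam, -1.28 for fasn, -21.09 for ggact.2, -21.85 for ggact.3, -10.98 for hhatlb, -1.19 for lmnb2, -8.10 for prkcq, -1.49 for rad18, -1.15 for rbp4, -4.78 for rmdn1, -7.89 for slc47a2.2, -6.36 for znf569l, -9.64 for znf977, -1.6 for RAC1, -0.55 for ezh2, -0.53 for gli1, -1.0 for icn2, -0.97 for si:ch211-281l24.3 and -1.17 for znfl1h. Among genes lower in gfi1ab-/-, they were 3.01 for adcy8, 2.26 for cacna1ba, 0.52 for cldne, 2.43 for cyt1l, 0.54 for f13a1b, 6.93 for gba3, 1.5 for he1.2, 2.52 for krt91, 4.32 for lgi2a, 3.89 for rnd2, 2.55 for selenow2b, 1.04 for stab2, 2.2 for tdrd6, 4.01 for tppp, 13.78 for znf1025, 4.76 for znfl1, 1.81 for hsp70.3, 1.11 for krt17, 0.62 for pax3a and 0.89 for rac1b. For atg4b, farp2 and thumpd3, which fell in gfi1ab-/- and lie on the chromosome of gfi1ab, the values were -0.74, -0.50 and -0.83, a larger fall on the gfi1aa-/- background.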

How the results depend on the processing

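The counts moved most with a minimum fold change and with the libraries in the fit. With DESeq2 on the 4 libraries, 565 genes were higher and 472 lower, and with edgeR on the 4 libraries 720 were higher and 665 lower. Without 1 of the 4 libraries, 507 to 786 genes were higher and 467 to 618 lower, and a log2 fold change of at least 1 left 563 and 442. RLE normalization gave 1081 and 973, no filter 1420 and 1313, at least 10 counts in 4 libraries 1073 and 924, and DESeq2 on 16 libraries 870 and 719. The newer quasi-likelihood method, chosen after seeing the data, gave 1142 and 1037. The planned older method is the default that was used, and the planned promoter motif count was not run. With a replicate block, 1025 genes were higher and 897 lower. The deviations of same-numbered replicates correlated at -0.05 between gfi1ab-/- and WT (-0.09 to 0.09 over 28 pairs of genotypes), and the labels give the number no shared origin, so replicates share only a number. No called gene changed sign under any alternative, and 45.2% to 99.7% of the 2049 genes were also called. Called genes were chosen for their difference in the same counts, so changes of sign were unlikely from the start. A set of 87 named genes was scored under the 12 alternatives other than the minimum fold change, and other named genes were not scored. Of the 71 in this set past the threshold, 34 passed under every one of these alternatives and none changed sign. Many of the other calls were lost on leaving out 1 library. Of the 16 genes in this set not past the threshold, 8 changed sign under at least 1 alternative. The gene gfi1b passed with no filter (adjusted p = 0.014), the newer method (0.043) and the block (0.043), and ranged up to 0.31 elsewhere, and hbae3 passed with no filter (0.029). With 2 libraries a group, genes under about 2 CPM were called at a median size of 2.88 on the log2 scale, against 0.35 among the genes of highest level.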
